A study of Homo sapiens with 11 samples.

Results

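The response of MDA-MB231 cells to doxorubicin was described from a pair of RNA-seq libraries, which are 2 of the 11 libraries of a drug comparison in 2 human cancer cell lines. They were chosen by their titles: the MDA-MB231 library titled for doxorubicin was set against the MDA-MB231 DMSO library that carries no time in its title. MDA-MB231 is a line of basal-type breast cancer. The cells received 1 µM doxorubicin for 8 h, or the vehicle DMSO for a time the labels do not give. A further MDA-MB231 control library, titled 8hr, is labelled DMSO as its treatment but described as having had none, so it may be vehicle-treated or untreated. It is called the DMSO library titled 8hr here, after its treatment label, and the distance between it and the DMSO library may hold an effect of the vehicle. Etoposide (20 µM, 8 h) in MDA-MB231, and doxorubicin (1 µM, 8 h) with its DMSO library in U2OS osteosarcoma cells, are given beside the results where they help. Each of these groups was 1 library of total RNA from dishes of cells, and the labels do not say how many dishes a library stands for. With 1 library a side there was no replicate check and no test, so all ratios below describe these libraries.

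Doxorubicin is an anthracycline that slides between the base pairs of DNA. It traps topoisomerase II on DNA while the enzyme holds both strands cut, which leaves double-strand breaks, and it can displace histones from chromatin. Breaks of this kind are known to activate the ATM kinase and to hold cells before mitosis. Etoposide traps the same enzyme without binding between base pairs.

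Reads assigned to genes came to 23260228 in the doxorubicin library, 25506368 in the DMSO library and 16774156 in the DMSO library titled 8hr. Genes with at least 1 read numbered 18259 with doxorubicin, 16518 with DMSO and 15977 in the 8hr library. Reads aligned to several places made up 34.4% of tabulated reads with doxorubicin, 30.0% with DMSO and 30.4% in the 8hr library. The 20 genes with the most reads held 6.33% of gene counts with doxorubicin, 4.80% with DMSO and 5.10% in the 8hr library. The part of these differences in the results was not tested. The labelled cell type was checked against its markers. Of 16 markers listed for mesenchymal and basal lines, 15 passed the expression minimum. The only keratins in that list are KRT8 and KRT18, so it does not check basal keratins. VIM had 2659 CPM with doxorubicin, 2374 CPM with DMSO and 2145 CPM in the 8hr library, while TWIST1 had at most 2 reads in any of the 3. Of 16 luminal epithelial markers, 8 passed the minimum too, among them KRT19 (65.3 CPM with doxorubicin, 167 CPM with DMSO, 132 CPM in the 8hr library), ERBB2, XBP1 and CLDN4. The luminal hormone receptor genes ESR1 and PGR, and CDH1 and FOXA1, stayed under 2 CPM in all 3 libraries. The blood cell markers HBB and HBA1 had no read in any of the 3, and PTPRC had 12 reads with doxorubicin, 9 with DMSO and 8 in the 8hr library. In bulk RNA, fewer cells of a kind and less RNA per cell cannot be told apart.

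Ratios were taken between read counts scaled to library size (CPM) after TMM scaling, which sets library sizes by the genes that change least, with 0.5 CPM added on both sides. A gene was considered only if 1 of its CPM values reached 5, and it was counted once its ratio reached 2-fold. In the doxorubicin library, 914 of 11160 such genes (8.19%) lay at or above that ratio, and 2100 (18.8%) lay below DMSO by as much. The remaining 8146 lay within 2-fold. At 4-fold the counts were 185 higher and 393 lower, and at 8-fold the order was reversed, with 80 higher and 42 lower. At 16-fold 33 genes were higher and 4 lower. The lower side thus held many moderate differences and the higher side the few extreme ones. Of the 914 higher genes, 322 had under 5 CPM with DMSO and entered through the doxorubicin library alone, so that only a higher value could bring them in. The median ratio over all genes was −0.10 on the log2 scale, with quartiles of −0.78 and 0.50. The zero point depends on the scaling: with total gene counts in place of TMM the median was −0.22 and the split 645 higher to 2443 lower. The 2 DMSO libraries lay much closer together, since 193 of 10832 genes (1.78%) differed by 2-fold or more between them and the quartiles were −0.17 and 0.19. Against the DMSO library titled 8hr, 793 of the 914 higher genes and 1862 of the 2100 lower genes were again past 2-fold in the same direction. Around the threshold, 515 genes had an absolute log2 ratio of 1 to 1.1 and 588 one of 0.9 to 1, so the counts move with small shifts of scale.

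**Figure D1:**
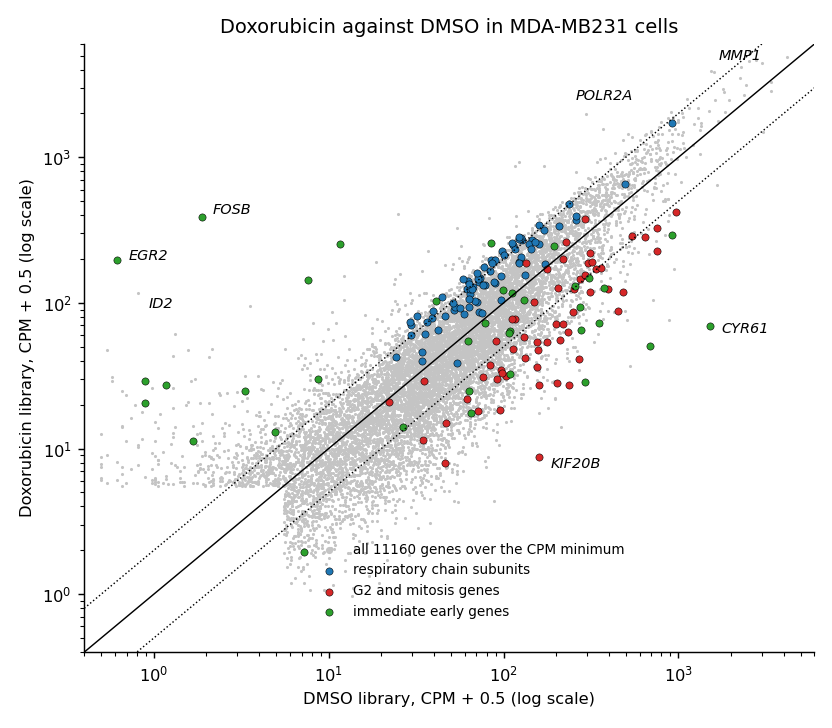
CPM + 0.5 of each of the 11160 genes in the doxorubicin library (vertical, log scale) against the DMSO library (horizontal, log scale), with the line of equal level and dotted lines at 2-fold. Respiratory chain subunits lie in a narrow band above the line, G2 and mitosis genes mostly below it, and immediate early genes on both sides, with EGR2 and FOSB farthest above.

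The highest ratios belonged to transcription factors and other genes that were close to silent with DMSO. EGR2, a zinc finger factor of the early growth response family, had 197 CPM with doxorubicin, against 0.12 CPM with DMSO and 0.06 CPM in the 8hr library. These were 4221 reads against 3 reads and 1 read, and the log2 ratio with the added 0.5 CPM was 8.32. The exact 95% interval of the ratio without that addition ran from 9.16 to 13.0, covers counting error only, and is wide because the DMSO library held 3 reads. Because the ratios hold the added 0.5 CPM and the intervals do not, ratios of genes with few DMSO reads can lie below their intervals. Without the addition the log2 ratio of EGR2 was 10.7.

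FOSB, a partner of JUN in the AP-1 factor, had 387 CPM with doxorubicin, 1.38 CPM with DMSO and 1.56 CPM in the 8hr library, a log2 ratio of 7.69. ID2, which binds and blocks helix-loop-helix factors, had 116 CPM with doxorubicin, against 0.31 CPM with DMSO and 0.50 CPM in the 8hr library, a log2 ratio of 7.16. INSM2, a zinc finger factor related to the neuroendocrine regulator INSM1, had 1007 reads with doxorubicin and 1 read in each DMSO library, a log2 ratio of 6.46 with an interval from 7.74 to 15.5. In all 4 of these genes the DMSO libraries lay together near zero and the doxorubicin library stood far above them.

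The next 11 genes by this ranking, leaving out placeholder and noncoding symbols, had log2 ratios from 5.75 down to 4.54. Among them were ZCCHC12, TEX14, SPOCK2, MYCL1, EGR3, SNAI1, RGS16, SEPT4, HOMEZ and ARC. TEX14 is needed for the bridges between germ cells, MYCL1 is a MYC family member and SNAI1 is a repressor of E-cadherin. SNAI1 had 46.7 CPM with doxorubicin, 1.06 CPM with DMSO and 1.81 CPM in the 8hr library, while its relative SNAI2 was lower, at 5.47 CPM with doxorubicin against 44.6 CPM with DMSO and 65.4 CPM in the 8hr library. RGS16, a brake on G protein signalling, had 94.9 CPM with doxorubicin, 3.07 CPM with DMSO and 2.31 CPM in the 8hr library. Among all 914 higher genes, 35 had at most 10 reads in the DMSO library, and 34 of these also had at most 10 in the 8hr library.

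**Figure D2:**
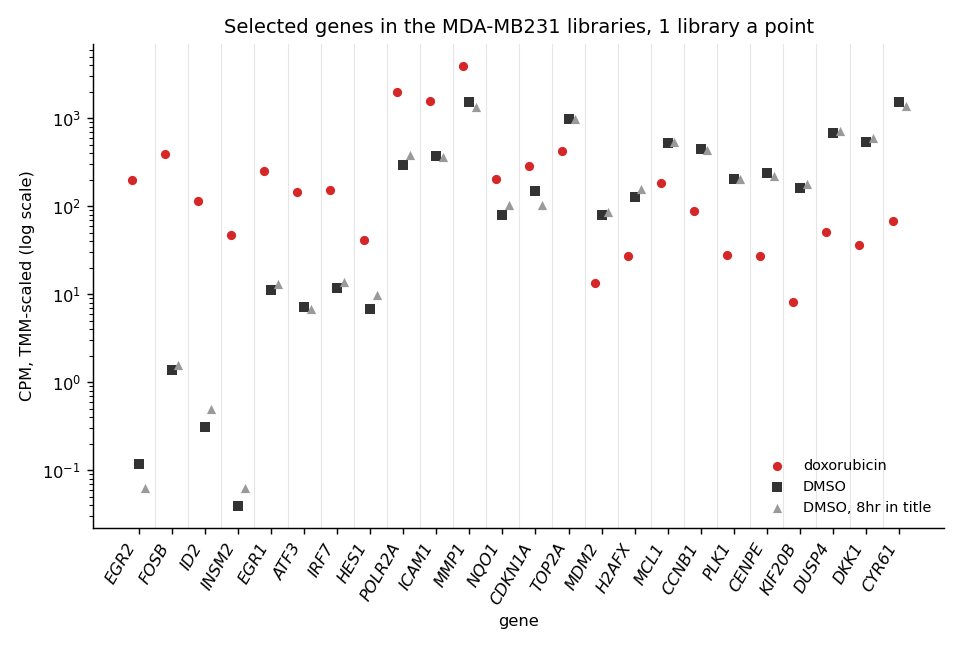
TMM-scaled CPM (vertical, log scale) of 24 genes in the doxorubicin library (circles), the DMSO library (squares) and the DMSO library titled 8hr (triangles), 1 library a point. From EGR2 to CDKN1A the doxorubicin point lies above both DMSO points, and from TOP2A to CYR61 below both.

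The 15 lowest named genes had from 13.1 CPM (TMEM177) to 1522 CPM (CYR61) in the DMSO library. Naming required 10 CPM in 1 of the 2 libraries, so genes this much lower had to reach it with DMSO. CYR61, a matrix-associated growth regulator and target of the YAP coactivator, had 68.6 CPM with doxorubicin, 1522 CPM with DMSO and 1364 CPM in the 8hr library. Its log2 ratio was −4.46, with an interval from −4.55 to −4.40. DKK1, a secreted inhibitor of WNT signalling, had 36.5 CPM with doxorubicin, against 531 CPM with DMSO and 601 CPM in the 8hr library. In both genes the DMSO libraries lay far above the doxorubicin library.

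KIF20B, CCDC8, TSPYL5, BCAR3, TMEM177, DUSP4, CLDN4, ZNF792, KBTBD6, NLRP3, LRRC8E and PHLDA1 were also among the 15 lowest, with log2 ratios from −4.20 to −3.53. KIF20B is a mitotic kinesin, DUSP4 a nuclear phosphatase that switches off ERK, CLDN4 a tight junction protein, and NLRP3 the sensor of an inflammasome. TSPYL5 was the 1 gene of these for which the DMSO libraries differed by 2-fold or more from each other, at 28.2 CPM with DMSO and 9.19 CPM in the 8hr library, against 1.36 CPM with doxorubicin.

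The immediate early genes, which cells switch on within minutes of a stimulus without new protein, were divided. Of 36 genes of this list over the minimum, 13 were at least 2-fold higher and 13 (36.1%) at least 2-fold lower, where 18.8% of all genes were lower. Of the 13 higher, 8 had under 5 CPM with DMSO and passed through the doxorubicin library alone, so their count is not read against the 8.19% of all genes. The higher side held EGR1, EGR2, EGR3, FOS, FOSB, ARC, ATF3, BTG2, NR4A2, NR4A3, ZFP36, KLF10 and JUNB. EGR1 had 252 CPM with doxorubicin, 11.1 CPM with DMSO and 13.1 CPM in the 8hr library. ATF3, a stress-induced bZIP factor, had 143 CPM with doxorubicin, 7.12 CPM with DMSO and 6.81 CPM in the 8hr library. FOS had 24.5 CPM with doxorubicin, 2.83 CPM with DMSO and 2.56 CPM in the 8hr library, so the 2 AP-1 partners FOS and FOSB were both higher.

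The lower side held CYR61, CTGF, DUSP1, DUSP4, DUSP6, FOSL1, FOSL2, JUND, KLF2, KLF6, IER3, ZFP36L1 and ZFP36L2. FOSL1, the FOS relative that MDA-MB231 cells are known to express strongly, had 28.3 CPM with doxorubicin, 290 CPM with DMSO and 256 CPM in the 8hr library, a log2 ratio of −3.34. JUN stayed within 2-fold, at 103 CPM with doxorubicin, 131 CPM with DMSO and 160 CPM in the 8hr library. MYC had a log2 ratio of −0.96, just inside the threshold, at 131 CPM with doxorubicin against 256 CPM with DMSO and 249 CPM in the 8hr library. Within the AP-1 family, then, FOSB, FOS and JUNB were higher while FOSL1, FOSL2 and JUND were lower.

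With etoposide in the same line, a comparison that shares the DMSO library, the log2 ratios were 4.53 for EGR1, 3.92 for FOSB, 2.96 for EGR2 and 3.77 for FOS. For genes that were lower with doxorubicin they were −1.68 for DUSP4, 0.30 for CYR61, 3.35 for CTGF, 0.86 for JUND and 1.09 for DUSP1. Of the 36 genes of the list, 17 were at least 2-fold higher with etoposide and 6 at least 2-fold lower. CTGF itself had 127 CPM with doxorubicin, 373 CPM with DMSO and 451 CPM in the 8hr library. The differences between the drugs were not tested.

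ID proteins block differentiation factors, and Notch receptors with their HES targets carry signals between neighbouring cells. Of 15 genes of this list over the minimum, 3 (20%) were at least 2-fold lower, near the 18.8% of all genes, and 6 were at least 2-fold higher. Of these 6, 4 had under 5 CPM with DMSO and passed through the doxorubicin library alone, so their count is not read against all genes. Besides ID2, the higher genes were the ligand DLL1, the receptor NOTCH3, the target factors HES1 and HES4, and BAMBI, a decoy receptor of the TGF-beta family. HES1 had 41.4 CPM with doxorubicin, 6.81 CPM with DMSO and 9.94 CPM in the 8hr library. DLL1 had 296 reads with doxorubicin, 4 with DMSO and 3 in the 8hr library, a log2 ratio of 4.45 with an interval from 5.09 to 8.34. The ligand JAG1 was lower, at 80.8 CPM with doxorubicin against 202 CPM with DMSO and 182 CPM in the 8hr library, as were the BMP antagonist NOG and the inhibitory SMAD6. ID1 and ID3, the relatives of ID2, had log2 ratios of −0.12 and 0.64. ID4 was below the minimum, at 3.04 CPM with doxorubicin, 1.18 CPM with DMSO and 2.56 CPM in the 8hr library.

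Genes of G2 and mitosis were low as a group. Of 58 over the minimum, 39 (67.2%, against 18.8% of all genes) were at least 2-fold lower and none was 2-fold higher, and the median log2 ratio was −1.44, against −0.10 over all genes. KIF20B had 8.23 CPM with doxorubicin, 160 CPM with DMSO and 180 CPM in the 8hr library. CENPE, the kinesin that moves chromosomes to the spindle equator, had 26.9 CPM with doxorubicin, 235 CPM with DMSO and 220 CPM in the 8hr library. PLK1, the kinase that drives entry into mitosis, had 27.9 CPM with doxorubicin and 201 CPM in each DMSO library. For these genes the DMSO libraries lay close together and the doxorubicin library lay several-fold below.

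CCNB1, the mitotic cyclin that activates CDK1, had 87.8 CPM with doxorubicin, 449 CPM with DMSO and 431 CPM in the 8hr library. BUB1B, a spindle checkpoint protein, had a log2 ratio of −2.56, and CENPA, the histone H3 variant of the centromere, one of −2.54. CDK1, the partner of CCNB1, did not share this, at 379 CPM with doxorubicin, 292 CPM with DMSO and 220 CPM in the 8hr library. The master regulator FOXM1 (log2 ratio 0.20), the securin PTTG1 (0.49) and the survivin gene BIRC5 (−0.06) also lay within 2-fold. The list was therefore not uniform: its 3 members above 0 were CDK1, FOXM1 and PTTG1. With etoposide the median of the same genes was −1.23, with log2 ratios of −4.04 for PLK1, −1.15 for KIF20B and −2.67 for HMMR, whose ratio with doxorubicin was −0.09.

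The promoters of mitotic genes are known to carry a CCAAT box, bound by NF-Y, and a cell cycle homology element with the letters TTTGAA. RefSeq promoters of GRCh38.p14 were searched in the 250 bases before the first listed start of each gene, on both strands, with CCAAT and TTTGAA, which can share at most 1 end letter. Of the 58 genes, 48 had a promoter in the table, and 26 of these (54.2%) held TTTGAA while 34 (70.8%) held CCAAT. Among all 27305 promoters the shares were 13.6% for TTTGAA and 33.0% for CCAAT, and among the 8063 matched genes over the minimum they were 8.04% and 36.0%. Of the 39 genes that were 2-fold lower, 34 had a promoter, of which 20 held TTTGAA and 26 held CCAAT. Of the 19 others, 14 had one, of which 6 held TTTGAA and 8 held CCAAT. The letters were thus common in the whole list, and a match is a description, not a bound site. The promoters of 5 genes are shown because they span the ways these letters occur in genes more than 4-fold lower, with the letters found in capitals on either strand. PLK1 (chr16:23678639-23678888, plus strand) held both near its start. CENPA (chr2:26785806-26786055, plus strand) held TTTGAA at 18 to 13 bases before the start. BUB1B (chr15:40160819-40161068, plus strand) held TTTGAA alone, CCNB1 (chr5:69166900-69167149, plus strand) held CCAAT at 2 places, and CENPE (chr4:103198344-103198593, minus strand) held neither.
PLK1: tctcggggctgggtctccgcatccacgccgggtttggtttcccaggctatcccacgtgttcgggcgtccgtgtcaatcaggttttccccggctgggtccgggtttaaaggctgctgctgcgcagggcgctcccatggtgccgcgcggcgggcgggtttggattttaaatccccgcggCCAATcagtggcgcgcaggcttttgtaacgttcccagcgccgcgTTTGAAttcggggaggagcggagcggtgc
CENPA: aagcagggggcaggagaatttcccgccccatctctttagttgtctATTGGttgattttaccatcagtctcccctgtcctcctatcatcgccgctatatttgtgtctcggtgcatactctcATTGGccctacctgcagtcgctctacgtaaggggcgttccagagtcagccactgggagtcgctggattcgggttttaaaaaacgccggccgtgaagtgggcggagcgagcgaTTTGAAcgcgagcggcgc
BUB1B: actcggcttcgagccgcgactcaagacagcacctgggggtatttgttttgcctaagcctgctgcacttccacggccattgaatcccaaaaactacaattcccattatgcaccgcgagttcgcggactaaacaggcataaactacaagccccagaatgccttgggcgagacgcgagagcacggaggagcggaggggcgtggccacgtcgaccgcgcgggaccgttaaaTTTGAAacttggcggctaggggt
CCNB1: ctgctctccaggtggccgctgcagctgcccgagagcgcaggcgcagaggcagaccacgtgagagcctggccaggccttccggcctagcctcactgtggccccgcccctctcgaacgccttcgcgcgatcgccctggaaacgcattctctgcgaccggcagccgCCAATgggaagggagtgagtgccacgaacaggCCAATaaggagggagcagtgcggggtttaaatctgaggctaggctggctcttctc
CENPE: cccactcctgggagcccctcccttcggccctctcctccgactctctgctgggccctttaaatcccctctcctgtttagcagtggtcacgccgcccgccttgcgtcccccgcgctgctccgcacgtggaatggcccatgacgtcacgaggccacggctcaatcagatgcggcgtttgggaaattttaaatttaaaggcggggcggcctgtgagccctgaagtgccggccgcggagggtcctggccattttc

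The promoters of 3 of the strongest higher genes are shown beside them, to compare genes near silence with DMSO, with TATAAA and CCAAT in capitals. TATAAA, the letters of the TATA box, searched on both strands, stood in 62 of 603 matched promoters of the 2-fold higher genes (10.3%), in 69 of 1534 of the 2-fold lower genes (4.50%) and in 269 of 5926 of those within 2-fold (4.54%). Among the 8063 matched genes over the minimum the share was 4.96%, and among all 27305 promoters it was 11.1%. CCAAT stood in 45.6% of the higher, 32.1% of the lower and 36.0% of the genes within 2-fold. Of the 914 higher genes, 322 had under 5 CPM with DMSO and passed through the doxorubicin library alone. The higher group was thus filtered unlike the others, so its shares are not read against theirs. All these shares describe the groups and were not tested. FOSB (chr19:45467746-45467995, plus strand) held TATAAA at 30 to 25 bases before the start and INSM2 (chr14:35533914-35534163, plus strand) at 29 to 24. ID2 (chr2:8681806-8682055, plus strand) held CCAAT at 3 places and no TATAAA.
FOSB: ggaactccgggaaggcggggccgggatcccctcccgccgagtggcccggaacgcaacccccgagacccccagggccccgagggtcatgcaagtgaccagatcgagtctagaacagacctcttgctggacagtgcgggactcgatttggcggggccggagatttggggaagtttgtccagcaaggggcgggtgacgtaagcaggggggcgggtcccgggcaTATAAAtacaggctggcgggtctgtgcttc
INSM2: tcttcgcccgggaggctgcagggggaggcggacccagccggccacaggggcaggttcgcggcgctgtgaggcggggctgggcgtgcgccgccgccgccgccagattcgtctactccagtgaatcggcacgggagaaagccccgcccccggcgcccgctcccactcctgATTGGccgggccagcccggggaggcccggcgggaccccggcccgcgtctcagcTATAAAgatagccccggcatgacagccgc
ID2: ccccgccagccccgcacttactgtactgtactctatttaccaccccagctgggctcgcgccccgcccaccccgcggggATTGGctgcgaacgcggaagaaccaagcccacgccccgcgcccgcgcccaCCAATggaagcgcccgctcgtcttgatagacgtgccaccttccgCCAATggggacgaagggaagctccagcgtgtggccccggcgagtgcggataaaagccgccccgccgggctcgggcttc

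TOP2A, the topoisomerase II isoform of dividing cells and the target doxorubicin traps, was lower, with 421 CPM with doxorubicin, 970 CPM with DMSO and 974 CPM in the 8hr library. Its log2 ratio was −1.20, with an interval from −1.24 to −1.17. TOP2B, the isoform found in resting cells too, had 171 CPM with doxorubicin, 200 CPM with DMSO and 209 CPM in the 8hr library. TDP1, which removes topoisomerase I from DNA ends, had a log2 ratio of −1.99, and the mitochondrial TOP1MT one of −1.07. The other 7 of 10 genes in this list, TOP1 and the topoisomerase II repair enzyme TDP2 among them, lay within 2-fold. With etoposide the log2 ratio was −1.35 for TOP2A and −1.81 for TDP1.

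Among 15 genes that export or reduce doxorubicin, 3 were at least 2-fold higher (20%, against 8.19% of all genes) and none was 2-fold lower. NQO1, a quinone reductase, had 204 CPM with doxorubicin, 78.7 CPM with DMSO and 103 CPM in the 8hr library. AKR1B1, an aldo-keto reductase, had 502 CPM with doxorubicin, 236 CPM with DMSO and 226 CPM in the 8hr library, and the exporter ABCC3 had 19.3 CPM with doxorubicin, 8.97 CPM with DMSO and 8.81 CPM in the 8hr library. CBR1, which turns doxorubicin into doxorubicinol, had a log2 ratio of −0.09, and the exporter ABCC1 one of −0.53. ABCB1, the best known doxorubicin exporter, had 4 reads with doxorubicin and 1 in each DMSO library, too few to compare.

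Of 26 genes of the damage checkpoint, 23 had a ratio below 0, with a median of −0.60. At 2-fold, 5 (19.2%) were lower, about the 18.8% of all genes. H2AFX, the histone variant that ATM phosphorylates around breaks, had 27.2 CPM with doxorubicin, 128 CPM with DMSO and 155 CPM in the 8hr library. TIPIN, CDC25A, RNF168 and UIMC1 had log2 ratios between −1.06 and −1.47. The kinases ATM, ATR, CHEK1 and CHEK2 had log2 ratios of −0.36, −0.57, −0.70 and −0.73. No member was 2-fold higher.

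Homologous recombination and Fanconi anaemia genes repair breaks and crosslinks by copying the sister strand. Of 36, 16 were at least 2-fold lower (44.4%, against 18.8% of all genes) and none was 2-fold higher, with a median of −0.90. NBN, the partner of MRE11 and RAD50 at breaks, had 37.2 CPM with doxorubicin, 123 CPM with DMSO and 170 CPM in the 8hr library. BLM, a helicase, had a log2 ratio of −1.89, BARD1, the partner of BRCA1, one of −1.41, BRCA2 one of −1.29 and RAD50 one of −1.09. BRCA1 itself (−0.33) and FANCD2 (−0.52) lay within 2-fold, and FANCI was at 0.41. Of 13 end joining genes, 4 were at least 2-fold lower (30.8%, against 18.8% of all genes). These were POLQ, LIG4, XRCC1 and DCLRE1C, while the Ku subunit XRCC6 had a log2 ratio of 0.83.

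Of 36 p53 targets over the minimum, 5 (13.9%) were at least 2-fold lower, near the 18.8% of all genes, and the median was −0.11. A further 4 were at least 2-fold higher. Of these 4, 2 had under 5 CPM with DMSO and passed through the doxorubicin library alone, so their count is not read against all genes. MDM2, a ubiquitin ligase, had 13.4 CPM with doxorubicin, 78.9 CPM with DMSO and 86.1 CPM in the 8hr library. CDKN1A, the p21 inhibitor of cyclin-dependent kinases, had 286 CPM with doxorubicin, 150 CPM with DMSO and 104 CPM in the 8hr library, a log2 ratio of 0.93 against DMSO and 1.45 against the 8hr library. The higher genes were BTG2, KITLG, TNFRSF10C and the death receptor TNFRSF10B, which had 627 CPM with doxorubicin, 280 CPM with DMSO and 251 CPM in the 8hr library. PLK2, PHLDA3, TRIAP1 and ASCC3 were the other lower genes. With etoposide the log2 ratio was 2.73 for CDKN1A and 0.23 for MDM2. The sign of the median was not stable, since it was 0.30 where the DMSO library titled 8hr took the place of the other and 0.03 with a minimum of 10 CPM or none.

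Among 33 BCL2 family and death receptor genes, 9 (27.3%) were at least 2-fold lower and 2 (6.06%) higher, TNFRSF10B and the initiator caspase CASP10, where 18.8% of all genes were lower and 8.19% higher. Both sides of the cell death balance were among the lower ones. MCL1, a short-lived survival protein, had 185 CPM with doxorubicin, 528 CPM with DMSO and 535 CPM in the 8hr library, and BCL2L1 and BCL2L2 had log2 ratios of −1.22 and −1.36. The TNF receptor TNFRSF1A had a log2 ratio of −2.84, the death receptor adaptor FADD one of −2.82, and BAK1, which permeates mitochondria, one of −2.61. TRADD, the adaptor of TNFRSF1A, was at 0.39, BAX at 0.17 and PMAIP1 at −0.38.

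The transcription machinery itself differed unequally. POLR2A, the catalytic subunit of RNA polymerase II, had 1975 CPM with doxorubicin, 296 CPM with DMSO and 379 CPM in the 8hr library. Its log2 ratio of 2.74 had an interval from 2.70 to 2.77, and it was the highest of the 33 genes in its list. HEXIM1, the inhibitor of the elongation kinase P-TEFb, had 404 CPM with doxorubicin, 165 CPM with DMSO and 172 CPM in the 8hr library. The elongation kinase gene CDK12 had 41.9 CPM with doxorubicin, 163 CPM with DMSO and 204 CPM in the 8hr library, and the initiation kinase CDK7 had a log2 ratio of −1.56. The elongation factor gene ELL2, at −1.15, was the other lower member. The small subunits POLR2F, POLR2K and POLR2L had log2 ratios from 1.13 to 1.18, POLR2B one of 0.04, and POLR2D one of −0.86. With etoposide POLR2A was at 1.43 and CDK12 at 0.88.

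Of 36 SR, CLK and hnRNP splicing genes, 7 were at least 2-fold lower (19.4%, about the 18.8% of all genes) and none was 2-fold higher. Among the lower ones SRSF3 had 86.7 CPM with doxorubicin and 430 CPM in each DMSO library, and SRSF4, SRSF6, SRSF7 and SRSF2 had log2 ratios from −2.40 to −1.20. The hnRNP genes all stayed within 2-fold, from −0.88 for HNRNPD to 0.50 for HNRNPM.

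Zinc finger genes with ZNF numbers, many of which encode KRAB repressors of mobile elements, were lower in large number. Of 528 in the files 374 were over the minimum, with a median log2 ratio of −0.80. Of the 374, 159 (42.5%, against 18.8% of all genes) were at least 2-fold lower and 17 at least 2-fold higher. Of the 17, 8 had under 5 CPM with DMSO and passed through the doxorubicin library alone, so their count is not read against all genes. ZNF639 had 7.67 CPM with doxorubicin, 77.6 CPM with DMSO and 83.1 CPM in the 8hr library, and ZNF22 had 10.0 CPM with doxorubicin, 93.6 CPM with DMSO and 98.3 CPM in the 8hr library. ZNF425 went the other way, at 24.7 CPM with doxorubicin, 3.74 CPM with DMSO and 3.19 CPM in the 8hr library. With etoposide the median of the same genes was 0.49, and 63 were 2-fold higher and 15 lower, where 8.62% of all genes were higher and 11.1% lower. Reads of near-identical zinc finger genes may be left out of the counts or split.

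Of 54 enzymes of DNA methylation and chromatin, 13 (24.1%) were at least 2-fold lower and 2 (3.70%) higher, where 18.8% of all genes were lower and 8.19% higher. DNMT3B, which sets new methylation marks, had 3.09 CPM with doxorubicin, 30.9 CPM with DMSO and 27.6 CPM in the 8hr library. KAT5, the acetylase that takes part in ATM activation, had 7.62 CPM with doxorubicin, 37.5 CPM with DMSO and 35.4 CPM in the 8hr library, and SETD2, which methylates histone H3 in gene bodies, had a log2 ratio of −1.84. SETD1B, an H3 methylase, was higher at a log2 ratio of 1.12, and so was KDM6B, a demethylase of repressive H3 marks, at 67.3 CPM with doxorubicin, 17.1 CPM with DMSO and 20.3 CPM in the 8hr library.

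Messages of the ribosome and the respiratory chain lay above 0 almost without exception. All 74 cytosolic ribosomal protein genes over the minimum had a ratio above 0, with a median of 0.78, and 13 (17.6%) were at least 2-fold higher. Of 76 respiratory chain subunits, 75 were above 0, with a median of 0.89, and 30 (39.5%) were at least 2-fold higher, where 8.19% of all genes were. Among them the complex I subunit NDUFA4 had 198 CPM with doxorubicin, 84.4 CPM with DMSO and 75.5 CPM in the 8hr library, and the exception was NDUFV3 at a log2 ratio of −0.48. The sizes depended on the scaling: with total gene counts the medians were 0.66 and 0.78, and with the median gene set to 0 they were 0.88 and 0.99. The ribosomal protein genes have many processed copies in the genome, so their counts are uncertain. Genes with short transcripts were high in general. Where the longest transcript was under 1 kb the median was 0.75, with 26.1% at least 2-fold higher. At 1 to 2 kb the median was 0.41, with 14.3% higher. The part of transcript length in the ribosomal and respiratory chain values was not tested.

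Of 42 ribosome biogenesis and RNA polymerase I genes, 31 lay within 2-fold and 14 were above 0, with a median of −0.55. At 2-fold, 11 were lower (26.2%, against 18.8% of all genes) and none was higher. RRP1B had 21.7 CPM with doxorubicin, 163 CPM with DMSO and 200 CPM in the 8hr library, and the polymerase I subunits POLR1B and POLR1A had log2 ratios of −2.06 and −1.36. The abundant nucleolar proteins NPM1 (0.54) and NCL (0.28) lay within 2-fold above 0.

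The ratios ordered with transcript length. For 10032 genes (89.9% of those over the minimum) a length was available from GENCODE 29. Genes whose longest transcript was under 1 kb had a median log2 ratio of 0.75, and 26.1% of these 337 were at least 2-fold higher and 3.26% at least 2-fold lower. Genes of 6 kb or more had a median of −0.45, with 3.67% of 1962 higher and 24.8% lower. Between the DMSO libraries (8hr over DMSO) the medians of the same classes were −0.14 and 0.14, and with etoposide they were −0.21 and 0.00. Genomic span gave the same order, from 0.48 under 5 kb to −0.43 at 200 kb or more. With etoposide the medians of these classes of span were −0.05 and −0.42. In U2OS cells the doxorubicin medians by transcript length ran from 0.70 to −0.20.

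**Figure D3:**
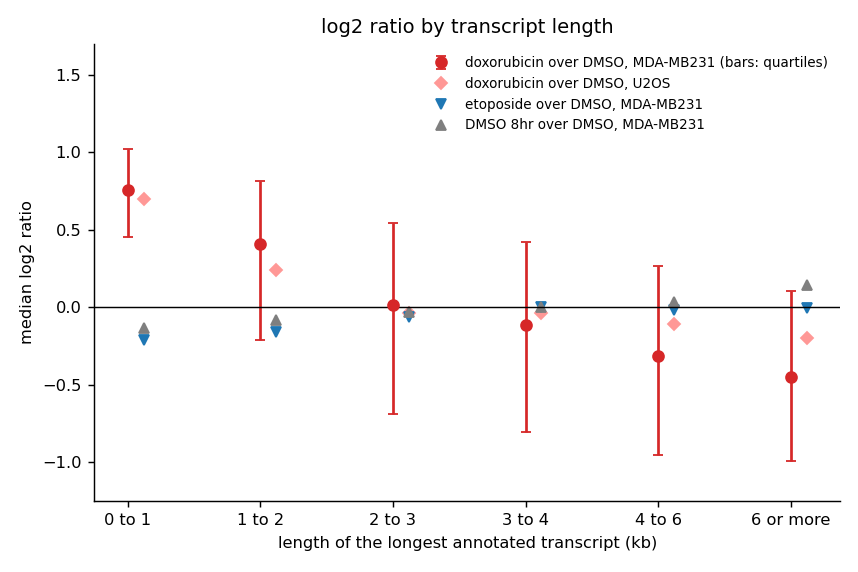
Median log2 ratio (vertical) of genes grouped by the length of their longest annotated transcript in kb (horizontal), for doxorubicin over DMSO in MDA-MB231 (circles, bars from the lower to the upper quartile), doxorubicin over DMSO in U2OS, etoposide over DMSO and DMSO 8hr over DMSO in MDA-MB231. The doxorubicin medians run from 0.75 to −0.45 in MDA-MB231, while those between its DMSO libraries run from −0.14 to 0.14.

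Replication-dependent histone genes, whose messages normally lack a poly(A) tail, were counted at low level. Of 61 in the files 11 were over the minimum, and 10 of these were at least 2-fold higher. They had to be high in some library to pass, so their count is not read against the background. HIST1H2AM had 12.3 CPM with doxorubicin, 0.79 CPM with DMSO and 1.19 CPM in the 8hr library, and HIST2H2BE had 23.9 CPM with doxorubicin, 2.48 CPM with DMSO and 1.88 CPM in the 8hr library. HIST2H2BE had a log2 ratio of 5.38 with etoposide, and HIST1H2AM one of 0.34. These genes are near-identical, so the member a read belongs to is uncertain. SLBP, which binds the end of histone messages, had a log2 ratio of −1.62.

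Stress and defence programmes gave mixed lists. Of 31 NRF2 and redox genes, 10 were at least 2-fold higher (32.3%, against 8.19% of all genes), among them PRDX1 (1384 CPM with doxorubicin, 540 CPM with DMSO, 545 CPM in the 8hr library) and the ferritin light chain FTL, with a log2 ratio of 1.14. HMOX1, the haem-degrading enzyme often used to mark NRF2 activity, was lower, at 4.07 CPM with doxorubicin, 14.5 CPM with DMSO and 12.8 CPM in the 8hr library. OSGIN1, TRIM16 and KEAP1, the adaptor that degrades NRF2, were lower too, with log2 ratios of −1.72, −1.70 and −1.20. Of 24 chaperones and sensors of the endoplasmic reticulum, 20 had a ratio above 0 and 4 were 2-fold higher (16.7%, against 8.19% of all genes), the stress sensor ERN1 highest at 1.45. The others were CRELD2, P4HB and SEC61B, at 1.00 to 1.17. HERPUD1, a target of the unfolded protein response, was the 1 lower gene, at −2.71.

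Of 30 genes of the integrated stress response, 5 (16.7%) were at least 2-fold lower, near the 18.8% of all genes. The 2 that were at least 2-fold higher were ATF3, with a log2 ratio of 4.24, and STC2. STC2 passed through the doxorubicin library alone, so their count is not read against all genes. STC2, a secreted stress-induced glycoprotein, had 5.33 CPM with doxorubicin, 1.18 CPM with DMSO and 1.31 CPM in the 8hr library. ATF4, the factor of that pathway, had 33.8 CPM with doxorubicin, 160 CPM with DMSO and 174 CPM in the 8hr library. Its targets TRIB3, CHAC1 and DDIT4 had log2 ratios of −2.40, −1.78 and −2.08. Other members went the other way against DMSO, among them ASNS (0.55), PPP1R15A (0.51) and DDIT3 (0.48). In the whole list 17 genes lay above 0 and 13 below, so it did not follow ATF4 as a group. CEBPG was the other lower gene, at −1.56. The transporter SLC7A11 cannot be read here, since it had 41.6 CPM with doxorubicin and 37.5 CPM with DMSO, but 124 CPM in the 8hr library. The median of the list was 0.15 against DMSO and −0.36 against the 8hr library, so its sign depended on the control library.

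Interferon-stimulated genes over the minimum numbered 34. Of these, 8 lay at least 2-fold above DMSO and 3 as far below (8.82%, where 18.8% of all genes did). Of the 8, 3 had under 5 CPM with DMSO and passed through the doxorubicin library alone, so their count is not read against all genes. IRF7, the factor that amplifies interferon production, had 152 CPM with doxorubicin, 11.7 CPM with DMSO and 13.6 CPM in the 8hr library, a log2 ratio of 3.65. CXCL10 had 14.0 CPM with doxorubicin, 2.20 CPM with DMSO and 1.56 CPM in the 8hr library. IFI6 (2.05), TAP1 (1.40), PARP14 (1.32), CXCL11 (1.29) and ISG20 (1.08) were higher as well, as was IFI27 (1.53), for which the control libraries lay apart at 16.1 CPM with DMSO and 4.94 CPM in the 8hr library. MX1 (−0.03), IFIT1 (−0.48) and OAS2 (−0.44) lay within 2-fold while IFIT5 (−2.68), SAMD9L (−1.11) and DDX58 (−1.01) were lower, so the list did not move together.

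Of 24 NF-kB regulators and cytokines, 6 were higher and 6 lower (25% each, where 8.19% of all genes were higher and 18.8% lower). ICAM1, an adhesion molecule for leukocytes, had 1575 CPM with doxorubicin, 368 CPM with DMSO and 363 CPM in the 8hr library. The chemokine CXCL3 had 326 CPM with doxorubicin, 54.0 CPM with DMSO and 23.0 CPM in the 8hr library. NFKBIA, the inhibitor that NF-kB induces, was lower, at 37.9 CPM with doxorubicin, 197 CPM with DMSO and 148 CPM in the 8hr library, as was the subunit RELA (log2 ratio −1.31). IL8 shows a limit of the control libraries, with 1221 CPM with doxorubicin and 1212 CPM with DMSO, but 549 CPM in the 8hr library.

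Of 32 genes of invasion and matrix, 26 lay within 2-fold. MMP1, the collagenase that MDA-MB231 cells are known to secrete, had 3909 CPM with doxorubicin, 1534 CPM with DMSO and 1346 CPM in the 8hr library. EGFR had 90.0 CPM with doxorubicin, 291 CPM with DMSO and 516 CPM in the 8hr library, and THBS1, a matrix protein, had a log2 ratio of −1.38. SERPINE2 was the other higher gene (1.20), and ITGA2 (−1.44) and ADAMTS1 (−1.39) were the other lower ones. In lipid synthesis ACLY, which makes cytosolic acetyl-CoA, had 1318 CPM with doxorubicin, 484 CPM with DMSO and 603 CPM in the 8hr library, while 25 of the 31 genes stayed within 2-fold. Of 25 heat shock genes HSPA1A, HSPA1L and HSPB8 were higher, 1 of them passing through the doxorubicin library alone. DNAJB1, HSPA8 and CHORDC1 were lower (12%, against 18.8% of all genes), the cochaperone DNAJB1 lowest at −1.91. HSPA1A and HSPA1L have near-identical relatives, so their counts are uncertain. Of 14 nuclear noncoding RNAs over the minimum, NEAT1 was lowest, at 49.1 CPM with doxorubicin, 257 CPM with DMSO and 111 CPM in the 8hr library, where the DMSO libraries themselves differed by more than 2-fold.

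Of 60 genes of G1/S and replication, 4 (6.67%) were at least 2-fold higher and 7 (11.7%) lower, where 8.19% of all genes were higher and 18.8% lower, with a median of 0.15. E2F1 and E2F2, which drive S phase genes, had log2 ratios of 1.22 and 1.90, the thymidine kinase TK1 one of 1.23 and the replication helicase subunit GINS4 one of 1.00. E2F1 had 273 CPM with doxorubicin, 117 CPM with DMSO and 96.0 CPM in the 8hr library. POLD3, a subunit of DNA polymerase delta, was lowest at −2.41, and the licensing inhibitor GMNN was at −1.50.

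**Figure D4:**
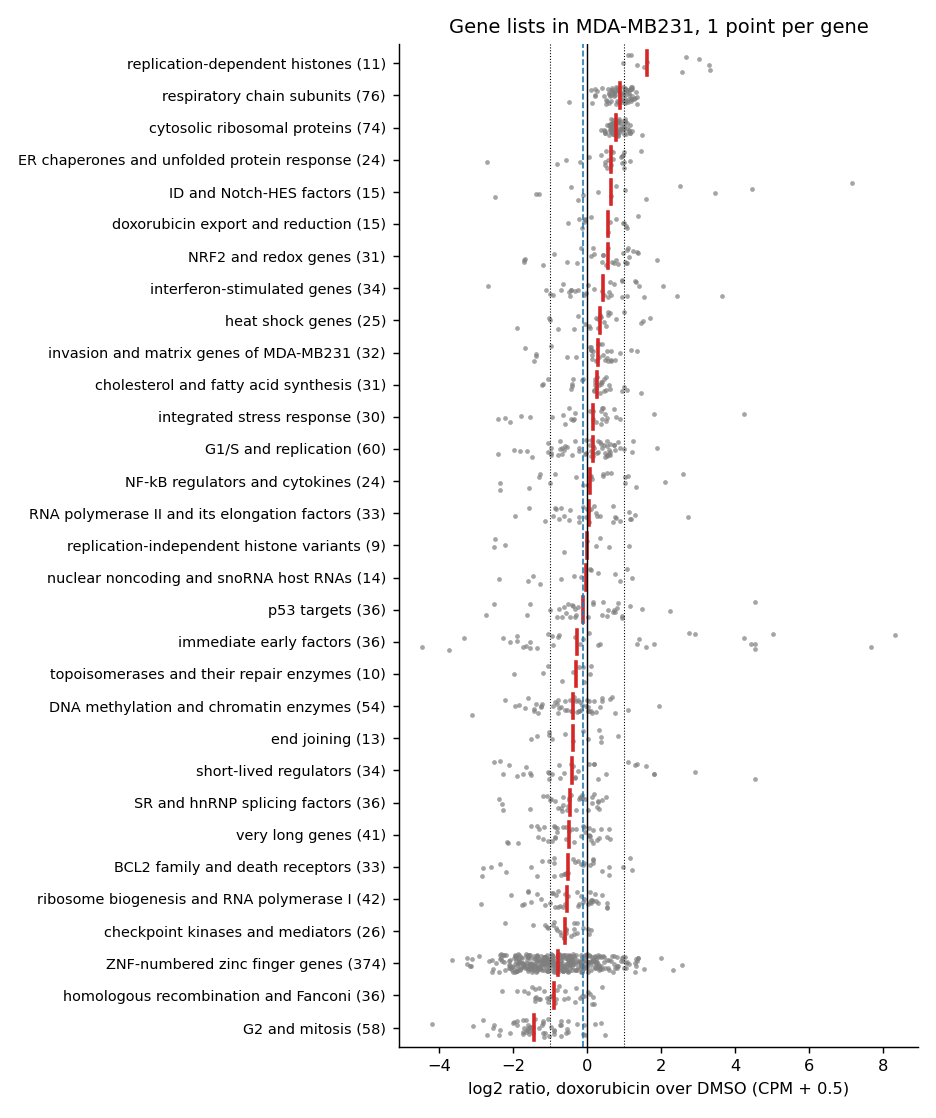
log2 ratio of doxorubicin over DMSO (horizontal) for each gene over the minimum, by list (vertical, number of genes in brackets), ordered by the list median (red bar). Dotted lines mark 2-fold and the dashed line the median of all genes at −0.10. The respiratory chain and ribosomal protein lists form narrow clusters above 0, the immediate early list spreads from −4.46 to 8.32, and the G2 and mitosis list lies lowest at a median of −1.44.

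The U2OS pair of doxorubicin and DMSO libraries shares no library with the MDA-MB231 pair. Of the 914 genes that were 2-fold higher in MDA-MB231, 603 (66.0%) were also 2-fold higher in U2OS, where they made up 35.9% of 1679. Of the 2100 lower genes, 1310 (62.4%) were also lower in U2OS, which was 60.9% of 2150 there. In U2OS 14.3% of 11737 genes were higher and 18.3% lower. Across the 10525 genes over the minimum in both lines, Pearson's r of the log2 ratios was 0.82, a description over genes that share libraries and are not independent. POLR2A had a log2 ratio of 2.74 in MDA-MB231 and 2.93 in U2OS, FOSB 7.69 and 7.13, and KIF20B −4.20 and −3.20. The median of the G2 and mitosis list was −1.44 in MDA-MB231 and −1.39 in U2OS.

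A small set differed in direction, 4 genes being 2-fold higher in MDA-MB231 and 2-fold lower in U2OS, and 8 the reverse. DUSP6, an ERK phosphatase, had a log2 ratio of −1.07 in MDA-MB231 and 3.05 in U2OS, and SPRY2, a brake on receptor tyrosine kinases, −1.91 and 1.33. ID1 and ID3, which lay within 2-fold in MDA-MB231, were at −3.70 and −4.18 in U2OS, while ID2 was at 2.20. BTG2, an antiproliferative p53 target, was at 4.53 in MDA-MB231 and −0.32 in U2OS, and CDKN1A at 0.93 and −1.52. With 1 library a side in each line these differences were not tested.

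**Figure D5:**
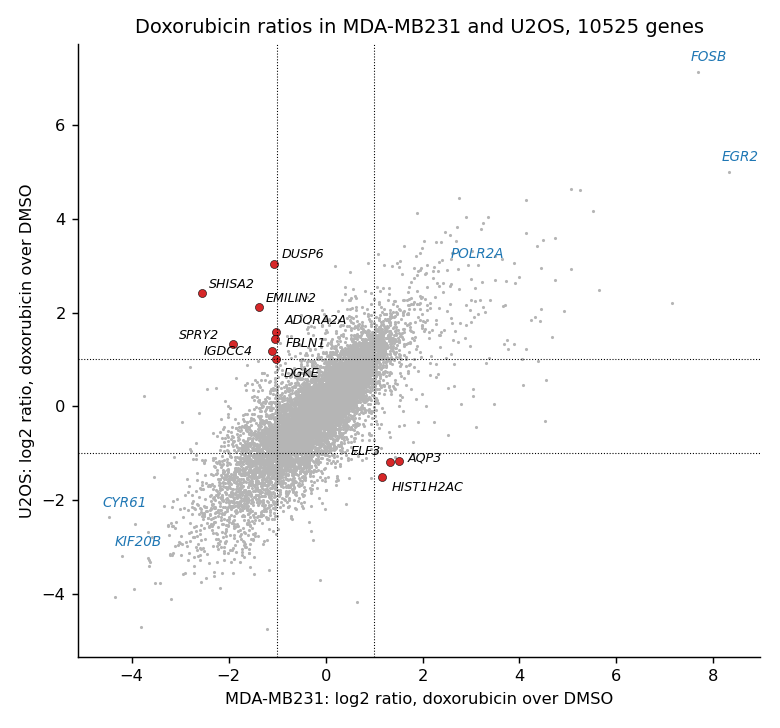
log2 ratio of doxorubicin over DMSO in MDA-MB231 (horizontal) and in U2OS (vertical) for the 10525 genes over the minimum in both lines. Most genes lie along the diagonal (r = 0.82 across genes), and the 11 red points with gene names are past 2-fold in opposite directions.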

How the data were processed

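Read counts per gene symbol were deposited by the authors for each of the 11 libraries, 23228 genes and 5 summary rows each. Per the submitters' processing notes, CASAVA 1.8.2, TopHat2 2.0.8b and HTSeq were used, and the builds hg19 and mm9 are named without a role. The sources used here state no strand setting, read length or RNA selection. Overlapping and antisense genes therefore cannot be told apart. The 5 summary rows were left out of library sizes.

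TMM factors (edgeR 4.0.16, R 4.3.3) came from 15888 genes kept by filterByExpr over the 11 libraries. Log2 ratios used CPM + 0.5 and genes with a larger CPM of at least 5. Intervals are exact Clopper-Pearson 95% intervals of the share of a gene's reads, and cover counting error only. No test was possible with 1 library a side. The calculation was tested on simulated data. Alternatives were total counts, DESeq2 1.42.0 size factors, other minimums and offsets, and the DMSO library titled 8hr.

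The gene lists and their members were chosen with earlier results of these data known. Named were the 15 highest and 15 lowest ratios at a larger CPM of at least 10, and list members with extreme ratios or a defining role. Where more than 8 members of a list are named, the further ones were chosen after their values were seen. Some genes within the rule are not reported here. Promoters are RefSeq sequences of GRCh38.p14, and transcript lengths are from GENCODE 29.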

Additional observations from a re-analysis of the deposited data

Results flagged for a closer look

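With doxorubicin, 11 genes with gene names were past 2-fold in opposite directions in MDA-MB231 and U2OS, each line being 1 library a side, so the differences between the lines were not tested. The values below are the log2 ratio in MDA-MB231 minus that in U2OS.

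The widest gap was that of SHISA2, an inhibitor of WNT and FGF receptor maturation, at −4.98, with log2 ratios of −2.56 in MDA-MB231 and 2.42 in U2OS. It had 8.98 CPM with doxorubicin and 55.4 CPM with DMSO in MDA-MB231, against 9.28 CPM with doxorubicin and 1.33 CPM with DMSO in U2OS, so the treated libraries of the lines lay close together and the DMSO libraries apart. DUSP6, which dephosphorylates ERK, had a gap of −4.11, and SPRY2 one of −3.24. EMILIN2, a matrix glycoprotein, had a gap of −3.49, and FBLN1, another matrix protein, one of −2.47. The adenosine receptor gene ADORA2A was at −2.62, IGDCC4 at −2.28 and the diacylglycerol kinase gene DGKE at −2.04. ADORA2A, FBLN1, DGKE and ELF3 had under 10 CPM in both MDA-MB231 libraries.

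In the other direction, the water channel gene AQP3 had a gap of 2.68, the histone gene HIST1H2AC one of 2.67 and the epithelial ETS factor ELF3 one of 2.52. AQP3 had 33.2 CPM with doxorubicin and 11.3 CPM with DMSO in MDA-MB231, and 8.84 CPM with doxorubicin and 20.6 CPM with DMSO in U2OS. HIST1H2AC has near-identical relatives, so its counts are uncertain.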

How the results depend on the processing

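Against 914 genes higher and 2100 lower with doxorubicin, the number higher was 1541 with a minimum of 1 CPM and 1788 with no minimum, since genes near zero were added. Total gene counts gave 645 higher and 2443 lower, so 20.9% of the calls were higher, against 30.3% with TMM. After seeing the data, setting the median gene to 0 gave 1227 higher and 1808 lower (40.4% higher), and TMM factors from all genes gave 743 and 2307. The share of higher MDA-MB231 genes also higher in U2OS was 53.3% with total counts and 69.7% at 10 CPM, against 66.0%, and for lower genes it was 71.5% with total counts, against 62.4%. The other 29 values of these 4 results stayed within 1.5 times the count or the interval of the share. Of 196 genes past 2-fold that are named or fall under the naming rule, between 182 (median gene at 0) and 196 kept direction and stayed past it, with 185 against the DMSO library titled 8hr. The causes of the moves in shares were not tested. The list medians of NF-kB genes (−0.03) and RNA polymerase II genes (−0.08) fell below 0 with total counts. No paired analysis was possible because each group was 1 library, and for the same reason no replicate could be left out.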

Other observations

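Of 41 genes spanning very long stretches of DNA, 10 were at least 2-fold lower (24.4%, against 18.8% of all genes) and none was 2-fold higher. Their median log2 ratio was −0.49, and −0.24 with no expression minimum. MAML2, a Notch coactivator, and RBMS3, an RNA-binding protein, were lowest, at −2.16 and −2.14. With etoposide the median of the 41 genes was −0.75, and 12 were at least 2-fold lower. Of 34 genes with short-lived messages, 12 were lower with doxorubicin (35.3%, where 18.8% of all genes were) and 8 higher. Of the 8, 2 had under 5 CPM with DMSO and passed through the doxorubicin library alone, so their count is not read against all genes. The ubiquitin ligase gene MDM2 and its relative MDM4 had log2 ratios of −2.51 and −2.11, and the repressor BCL6 one of 1.82. Of 9 replication-independent histone variants, CENPA, H1F0 and H2AFX were lower and H2AFJ was higher.

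Markers of other cell types were low in sum. Luminal markers summed to 291 CPM with doxorubicin, 449 CPM with DMSO and 397 CPM in the DMSO library titled 8hr, and blood cell markers to 236, 133 and 118 CPM in the same libraries. Osteoblast markers summed to 305 CPM with doxorubicin, 442 CPM with DMSO and 519 CPM in the 8hr library, and endothelial markers to 249, 224 and 235 CPM. CD68, also expressed outside blood cells, held most of the blood sum, with 222 CPM with doxorubicin, 126 CPM with DMSO and 114 CPM in the 8hr library.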
